A study of Mus musculus with 18 samples.

Results

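Layilin and the genes that handle hyaluronan were examined in the RPE of *rd1* mice after delivery of Nrf2. The group held 10 of the 47729 genes in the count table: the receptors Layn, Cd44, Lyve1 and Hmmr, the synthases Has1, Has2 and Has3, and Hyal1, Hyal2 and Cemip, which take part in breakdown. The group was chosen by the change of Layn in the comparison between Best1-Nrf2 and control eyes, and the other 9 genes were added for their known roles. Layn's change is therefore given as a description, without a test.

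Hyaluronan is a long, unbranched sugar polymer of the extracellular matrix. It is spun out at the plasma membrane by the hyaluronan synthases from UDP-glucuronic acid and UDP-N-acetylglucosamine, is cleaved by hyaluronidases, and is bound at the cell surface by receptors such as Cd44, Lyve1 and layilin. Layilin, the product of Layn, is a membrane protein with a C-type lectin domain whose cytoplasmic tail binds talin and other proteins that link the membrane to actin. In the eye, hyaluronan fills the vitreous and is part of the interphotoreceptor matrix between the RPE and the photoreceptors.

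The RPE RNA came from both eyes of 9 mice at P40. The *rd1* mice were of the FVB/N background and carry the *rd1* allele of Pde6b, through which rods are lost, so all groups shared this degeneration. In each mouse, 1 eye received AAV-Best1-GFP and AAV-Best1-Nrf2, which carries the human cDNA. Its fellow, the control eye, received AAV-Best1-GFP alone. The Nrf2 vector had another capsid and was given on top of the GFP vector, so the eyes also differed in total vector dose. The human Best1 promoter restricts expression to the RPE, but the RNA was taken from the eyecup after the retina had been removed, and RNA of other cells can be present. The summed level of 14 RPE markers ranged from 12890 to 68590 CPM (counts scaled to library size) in control eyes and from 15510 to 78320 CPM in the Best1-Nrf2 group, with medians of 38410 and 19190 CPM. Of the 14 markers 5 fell and none rose, and their mean log2 level was higher with Best1-Nrf2 in 2 of 9 mice. Each of 9 cone markers fell, from a summed level of 256 to 2035 CPM to one of 28.2 to 287 CPM. Of 15 macrophage and microglia markers, 8 rose. Their summed levels were 132 to 486 CPM in the control group and 132 to 585 CPM after Nrf2 delivery. Their mean log2 level was higher with Best1-Nrf2 in 9 of 9 mice, and 12 of the 15 log2 fold changes were above 0. Csf1r, a large part of the control sums, went the other way, from a mean of 136 to 59.5 CPM. Of the other lists, 1 of 6 rod markers tested rose and 1 fell, and 1 log2 fold change was above 0. The mean log2 level of the rod list was higher with Best1-Nrf2 in 0 of 9 mice. Of 9 fibroblast and sclera markers 1 rose, but 8 log2 fold changes were above 0. Their mean log2 level was higher in 9 of 9 mice. Of 8 Müller glia markers 0 passed the threshold, and their mean log2 level was higher in 3 of 9 mice. Markers counted as rising or falling passed an adjusted p under 0.05 in edgeR. Of all genes tested, 3.12% rose and 1.13% fell by this rule. The libraries held from 18956748 to 49598700 counts, the fewest in the control eye of mouse 8. Nfe2l2, the mouse gene of Nrf2, rose from 89.6 ± 17.8 CPM (SD, n = 9) in control eyes to 453 ± 147 CPM (SD, n = 9) in Best1-Nrf2 eyes, and how many of its counts were reads of the human cDNA was not tested. In these bulk samples, fewer cells of a type and less RNA per cell cannot be told apart.

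*Layn in both eyes*. Layn (ENSMUSG00000060594) lies on the minus strand of chromosome 9 at chr9:51054640-51077094 in GRCm38 and has up to 9 exons in 1 transcript. The lowest control eye had 0.0828 CPM of Layn, the median was 0.880 CPM and the highest was 1.75 CPM. In the Best1-Nrf2 eyes the lowest value was 13.9 CPM, the median was 28.9 CPM and the highest was 51.4 CPM. The groups did not overlap: every Best1-Nrf2 eye stood above every control eye, as the plot of all members by eye shows. The mean was 0.774 ± 0.498 CPM (SD, n = 9) in control eyes and 28.9 ± 13.1 CPM (SD, n = 9) in Best1-Nrf2 eyes. The log2 fold change of the paired fit was 5.35 with a standard error of 0.42, and Layn was higher in 9 of 9 mice. Adjusting for the mean level of rod and cone markers gave 4.30. That level ranged from 0.769 to 3.36 (log2 CPM) in Best1-Nrf2 eyes and from 3.40 to 5.38 in control eyes without overlap. Within mice, it was nearly the same in both eyes of mouse 6 (3.36 and 3.44) and far lower with Best1-Nrf2 in the others. A fit with this covariate and the mouse as a block therefore leans heavily on mouse 6. It leaves little to separate the covariate from the treatment, and this limit holds for every covariate value given here. Among the 18958 genes tested, the log2 fold change of 5.35 ranked 21, between Acox2 at 5.47 and Gm37498 at 5.28. Over those genes, 1.16% had groups whose CPM ranges did not overlap. Because Layn was chosen for this contrast, nothing is read from its place there.

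The size of the rise varied from mouse to mouse. Mouse 3 showed the smallest difference, from 0.995 to 15.2 CPM, or 15.3-fold. Mouse 9 showed the largest, from 0.0828 to 21.3 CPM, or 257-fold. The control eye of mouse 9 held 4 counts of Layn, and the control counts ranged from 4 to 44, so the fold of a single mouse is set largely by a small control count. In the Best1-Nrf2 eyes the counts ranged from 396 to 1999. The spread of Layn was 21.1-fold between the lowest and highest control eye and 3.70-fold between the lowest and highest Best1-Nrf2 eye.

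**Figure D1:**
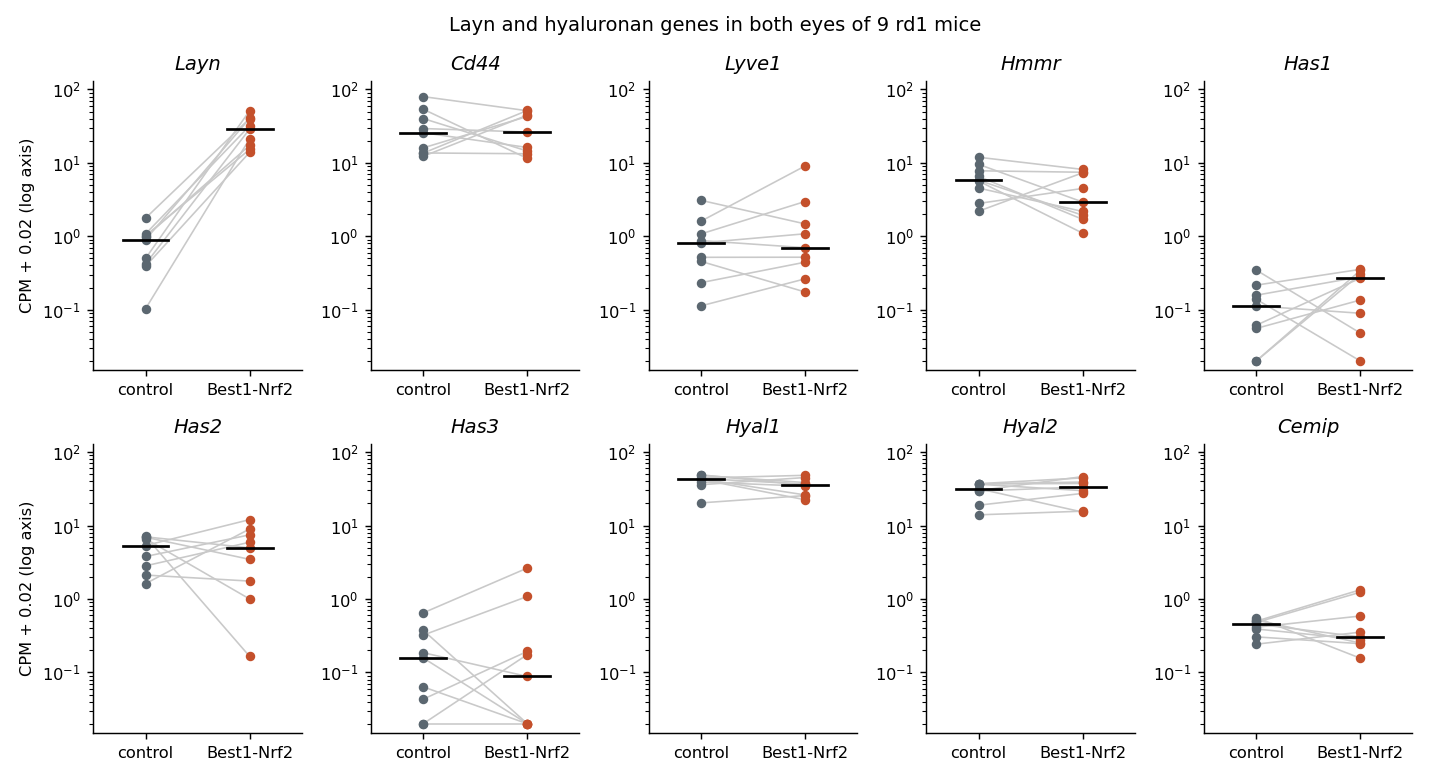
CPM of the 10 genes in the control and Best1-Nrf2 eye of each of 9 mice, on a log axis with a small constant added so that 0 can be drawn. Lines join the eyes of 1 mouse and black bars mark the medians. Layn rises from a median of 0.880 to 28.9 CPM in separate ranges, whereas the ranges of the other 9 genes overlap.

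*Layn beside the other hyaluronan receptors*. Scaled by exon length, Layn was among the least abundant members in control eyes and among the most abundant in Best1-Nrf2 eyes. In control eyes, the mean level was 10.8 CPM per kb for Hyal1, 9.15 for Hyal2, 4.66 for Cd44, 1.16 for Hmmr, 1.13 for Has2, 0.327 for Lyve1 and 0.321 for Layn, while Cemip, Has3 and Has1 stood at 0.0334, 0.0288 and 0.0233 CPM per kb. The ranges over the 9 control eyes overlapped for every pair of neighbours in that order. Within the eye, however, Cd44 stood above Hmmr and Has2 above Lyve1 in 9 of 9 control eyes, and Hyal1 above Hyal2, Hyal2 above Cd44 and Layn above Cemip in 8 of 9. Hmmr and Has2 (5 of 9), Lyve1 and Layn (4 of 9), Cemip and Has3 (6 of 9) and Has3 and Has1 (3 of 9) had no such order. In Best1-Nrf2 eyes, Layn reached 12.01 CPM per kb, beside 9.75 for Hyal2, 9.19 for Hyal1 and 4.46 for Cd44. Of the length-scaled level summed over the 4 receptors, Layn held from 1.15% to 17.1% in control eyes (median 5.04%) and from 44.4% to 91.7% in Best1-Nrf2 eyes (median 66.7%). This shift is a description of the same contrast that chose Layn.

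Cd44 is the best known cell surface receptor for hyaluronan and is carried by leukocytes, glia and many epithelia. It lies at chr2:102811141-102901665. In control eyes, Cd44 ranged from 12.3 to 79.8 CPM with a median of 25.7, and in Best1-Nrf2 eyes from 11.5 to 51.7 CPM with a median of 26.3. The ranges overlapped almost wholly, and Cd44 was higher after Nrf2 delivery in 3 mice and lower in 6. Its log2 fold change was −0.01 with a standard error of 0.45 (95% interval −0.98 to 0.96, edgeR adjusted p = 0.998). The within-mouse differences had an SD of 1.46 on the log2 scale and ran from −2.22 in mouse 4 to 1.93 in mouse 9. The sign of this change near 0 depended on which mouse was left out (−0.26 to 0.27). The rod and cone covariate moved it to −2.08 (adjusted p = 0.194).

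Lyve1, a hyaluronan receptor of lymphatic endothelium that some macrophages also carry, was scarce. It lies at chr7:110850607-110863239. Control eyes ranged from 0.0926 to 3.07 CPM (median 0.793) and Best1-Nrf2 eyes from 0.154 to 9.04 CPM (median 0.679). A single eye, the Best1-Nrf2 eye of mouse 6, gave the highest value. Lyve1 was higher in 6 of 9 mice, with a log2 fold change of 0.43 and a standard error of 0.45 (95% interval −0.54 to 1.40, edgeR adjusted p = 0.810). Without mouse 6 the log2 fold change was 0.15, without the mouse term 0.94 (adjusted p = 0.783) and with the rod and cone covariate 1.22 (adjusted p = 0.609). None of the 5 lymphatic endothelium markers differed, and none of the 7 markers of blood endothelium did.

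Hmmr, also called RHAMM, binds hyaluronan and is best known as a spindle protein of dividing cells. It lies at chr11:40701395-40733422. Its level ranged from 2.17 to 11.9 CPM (median 5.78) in control eyes and from 1.08 to 8.11 CPM (median 2.91) in Best1-Nrf2 eyes. The ranges overlapped, with the lower value in the Best1-Nrf2 eye of 7 mice and the higher in that of mice 1 and 9. Its log2 fold change was −0.80 with a standard error of 0.43 (95% interval −1.74 to 0.14), and it did not pass the threshold in edgeR (adjusted p = 0.497). It was −2.33 with the rod and cone covariate (adjusted p = 0.202). Of 9 markers of proliferating cells, 1 was lower (Cdk1) and the median log2 fold change was −0.93. The relation of Hmmr to these markers within each group is given below, and the number of dividing cells was not measured.

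*Hyaluronan synthases*. Has2 was the only synthase that passed the filter on low counts. It lies at chr15:56665627-56694539, and 4.3% of its exon bases are shared with the antisense gene Has2os. Has2 ranged from 1.60 to 7.08 CPM (median 5.32) in control eyes and from 0.145 to 12.03 CPM (median 4.95) in Best1-Nrf2 eyes. Both the lowest and the highest value came from Best1-Nrf2 eyes, of mouse 6 and mouse 9, and the spread was 83.1-fold there and 4.43-fold in control eyes. Its log2 fold change was −0.23 with a standard error of 0.71 (95% interval −1.77 to 1.31, edgeR adjusted p = 0.955), with Has2 higher in 4 mice and lower in 5. The fold change was 0.20 on the log2 scale without mouse 6. With the rod and cone covariate it was −4.83 and did not pass the threshold (adjusted p = 0.0840).

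Has1 and Has3 did not pass the filter on low counts. Has1 had from 0 to 13 counts per library in either group, with 0 counts in 2 control eyes and 1 Best1-Nrf2 eye. Has3 had from 0 to 12 counts in control eyes and from 0 to 81 counts in Best1-Nrf2 eyes, with 0 counts in 2 and 4 eyes. The 81 counts of Has3 came from mouse 8 and 38 from mouse 7, and no other eye of the 18 exceeded 12. Neither gene was tested.

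*Genes of hyaluronan breakdown*. Hyal1 and Hyal2 encode hyaluronidases, the first lysosomal and the second anchored at the cell surface by a lipid, and they sit side by side on chromosome 9. Hyal2 (chr9:107567945-107572779) ranged from 13.97 to 37.1 CPM (median 31.7) in control eyes and from 15.2 to 46.4 CPM (median 33.6) in Best1-Nrf2 eyes. It was higher in 7 of 9 mice, but the groups overlapped and the log2 fold change was 0.06 with a standard error of 0.18 (95% interval −0.32 to 0.45, edgeR adjusted p = 0.949). Hyal1 (chr9:107576927-107581710) ranged from 20.3 to 49.0 CPM (median 43.2) in control eyes and from 22.4 to 48.3 CPM (median 35.6) in Best1-Nrf2 eyes. The lowest control value belonged to mouse 8, and Hyal1 was lower in the Best1-Nrf2 eye of 6 mice. The fit gave a log2 fold change of −0.23 with a standard error of 0.16 (95% interval −0.59 to 0.12, edgeR adjusted p = 0.658). The annotation assigns 50.8% of the exon bases of Hyal1 also to Naa80 on the same strand, so reads could be split between them. Naa80 had a log2 fold change of −0.07 (edgeR adjusted p = 0.924).

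These intervals were the narrowest among the members: for Hyal1 and Hyal2, a rise or fall by 1 on the log2 scale lay outside the interval. For Cd44, Lyve1, Hmmr and Has2 the intervals were wide enough to hold changes of that size or close to it.

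Cemip, also called KIAA1199, encodes a protein needed for hyaluronan breakdown in fibroblasts. It lies at chr7:83932857-84086502 and was near the limit of detection, with 5 to 26 counts in control eyes and 6 to 47 in Best1-Nrf2 eyes. Its level ranged from 0.222 to 0.538 CPM (median 0.436) in control eyes and from 0.136 to 1.31 CPM (median 0.285) in Best1-Nrf2 eyes. The Best1-Nrf2 eyes of mice 4, 6 and 7 stood above all control eyes, while the lowest of all was that of mouse 9. On balance the log2 fold change was −0.01 with a standard error of 0.37 (95% interval −0.83 to 0.80, edgeR adjusted p = 0.995). It was 0.30 without the mouse term and 1.65 with the rod and cone covariate (adjusted p = 0.938 and 0.345).

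Of the 8 members that passed the filter, the 7 other than Layn held no gene past the threshold in edgeR (adjusted p under 0.05), at a background of 4.25% of the 18958 genes tested. By direction, 3.12% of genes were higher and 1.13% were lower with Best1-Nrf2. At an unadjusted p under 0.05 the count of these 7 was also 0. DESeq2 with the same paired design called 0, with 1 gene (Hmmr) at an unadjusted p under 0.05. With the rod and cone covariate, 3 of the 7 (Cd44, Hmmr and Has2) had an unadjusted p under 0.05, and without mouse 9 it was 1 (Hmmr), with none past the threshold. The median log2 fold change of the 7 genes was −0.01, beside −0.03 over all genes tested.

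*Other genes of the hyaluronan pathway*. A further 50 genes, listed for hyaluronan supply, breakdown and binding or as adaptors between its receptors and actin, were read from the same fit. Of these, 38 passed the filter, and 2 were higher and 2 lower with Best1-Nrf2, as the plot of fold changes shows. Over all genes tested, 3.12% were higher and 1.13% lower (4.25% in either direction). The 2 lower genes include Impg1, whose call is not read because it passed the filter through the control eyes. With so few called, nothing is read from these counts about the list.

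Ugdh converts UDP-glucose into UDP-glucuronic acid, a precursor of hyaluronan and of other glycosaminoglycans and a cosubstrate of glucuronidation. It ranged from 47.9 to 118 CPM (median 91.9) in control eyes and from 94.9 to 227 CPM (median 180) in Best1-Nrf2 eyes. Ugdh was higher in 9 of 9 mice, although the ranges overlapped. Its log2 fold change was 0.87 with a standard error of 0.16 (edgeR adjusted p = 0.00828). The covariate left it at 0.77 (adjusted p = 0.328). It was the only gene past the threshold among 10 of precursor supply, whose median log2 fold change was 0.33. Ugp2, which makes UDP-glucose, had a log2 fold change of 0.56, was higher in 9 of 9 mice and did not pass the threshold (edgeR adjusted p = 0.0527), although it did without the mouse term (0.56, adjusted p = 0.0246). Uap1l1 and Uap1, of the UDP-N-acetylglucosamine branch, had log2 fold changes of 0.27 and −0.28.

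Gusb, the lysosomal beta-glucuronidase that trims hyaluronan fragments and other sugar chains, was the only gene past the threshold among 4 of breakdown that were tested. It ranged from 9.11 to 32.0 CPM (median 26.3) in control eyes and from 24.6 to 64.3 CPM (median 40.5) in Best1-Nrf2 eyes, and was higher in 9 of 9 mice. Its log2 fold change was 0.81 with a standard error of 0.19 (edgeR adjusted p = 0.0316). This call was near the threshold, and Gusb did not pass it when mouse 2, 4, 5, 7, 8 or 9 was left out (adjusted p from 0.0513 to 0.105). Its log2 fold change was 0.91 with the rod and cone covariate (adjusted p = 0.319). Lysosomal enzymes are abundant in macrophages, 8 of whose 15 markers rose in the same eyes while Csf1r stood at 136 CPM in the control and 59.5 CPM in the Best1-Nrf2 group, and the part of these cells in the result was not tested.

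Of 13 hyaluronan-binding matrix genes that passed the filter, 2 were called lower, Impg1 and Impg2. Only the call of Impg2 is read. Impg1 and Impg2 encode proteoglycans of the interphotoreceptor matrix and are made by photoreceptors. Impg1 ranged from 1.08 to 18.3 CPM (median 2.24) in control eyes and from 0 to 0.881 CPM (median 0.0772) in Best1-Nrf2 eyes, so the groups did not overlap. Its fitted log2 fold change was −4.80 with a standard error of 0.73. Impg1 passed the count filter through the control eyes, where it is high, so no test is given for it and its call is not read as support. Impg2 ranged from 0.398 to 26.6 CPM (median 5.83) and from 0 to 20.1 CPM (median 0.643), was lower in 8 of 9 mice, and had a log2 fold change of −3.36 with a standard error of 0.80 (edgeR adjusted p = 0.0337). All 9 cone markers also fell in these eyes, and the part of the amount of photoreceptor RNA in the result was not tested. With the rod and cone markers as a covariate, Impg1 was at −1.43 and Impg2 at −1.16 (adjusted p = 0.718 for Impg2). Without the mouse term, Impg2 was at −1.78 (adjusted p = 0.543). It also did not pass without mouse 1, 2, 4, 5, 7, 8 or 9 (adjusted p from 0.0626 to 0.0973). The other matrix genes with the highest levels, Vcan and Ptx3, had log2 fold changes of −0.02 and 0.56 that did not pass.

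None of the 5 other genes that were listed as receptors and tested, and none of the 6 adaptor genes, passed the threshold in edgeR. Chodl, the closest relative of Layn by protein family, stood at 1.38 CPM in the control and 1.55 CPM in the Best1-Nrf2 group, with a log2 fold change of 0.03 (edgeR adjusted p = 0.994). The talins Tln1 and Tln2, to which the layilin tail binds, had log2 fold changes of 0.45 and 0.57 (edgeR adjusted p = 0.694 and 0.102). Ezr, which links membrane proteins to actin in the microvilli of the RPE, was at 708 and 947 CPM with a log2 fold change of 0.43 (edgeR adjusted p = 0.479). With the rod and cone markers as a covariate, 0 of the 38 pathway genes passed, whereas 30 genes in all did.

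**Figure D2:**
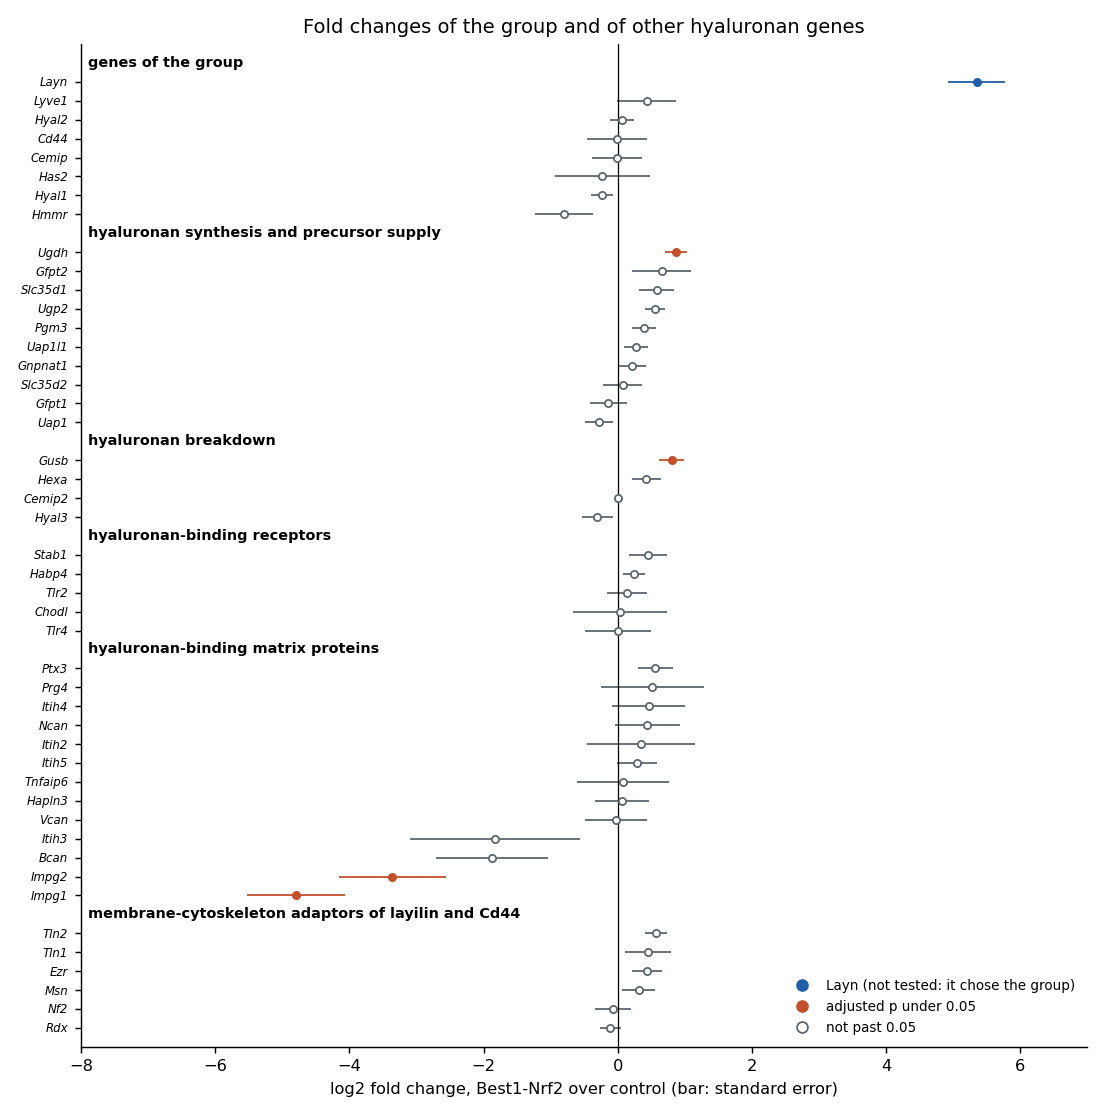
Log2 fold change of Best1-Nrf2 over control eyes, with its standard error, for the 8 members that passed the filter and 38 further hyaluronan genes grouped by role. Filled orange points passed an adjusted p of 0.05 in edgeR, open points did not, and Layn (blue) was not tested. Impg1 is filled by this rule, but its call is not read. Layn stands at 5.35, while the other members lie between −0.80 and 0.43.

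*Layn and Nfe2l2 within each group*. Variation among eyes of 1 group was not used to choose Layn, so the members were set against Nfe2l2 and against the macrophage and microglia markers within each group, in 32 relations on the log2 CPM scale. Among the Best1-Nrf2 eyes, Layn was highest in mouse 4 (51.4 CPM), where Nfe2l2 was also highest (703 CPM). Mice 7 and 5 followed for both, with 40.4 and 40.1 CPM of Layn and 605 and 545 CPM of Nfe2l2. The 3 eyes with the least Nfe2l2, of mice 6, 8 and 1 (275 to 312 CPM), had 17.3, 28.9 and 13.9 CPM of Layn. Over the 9 eyes, Pearson's r was 0.751 (2-sided exact permutation p = 0.0252, adjusted p = 0.212) and Spearman's rho was 0.817 (exact permutation p = 0.0108, adjusted p = 0.172). Without the 2 eyes farthest from the median of Nfe2l2, r was 0.916. The relation did not pass the correction for 32 relations. In the same eyes Hyal1 had r = 0.679 (exact permutation p = 0.0474, adjusted p = 0.303) and rho = 0.683 (exact permutation p = 0.0503, adjusted p = 0.314), with r at 0.468 without the 2 farthest eyes. Hyal2 had r = 0.573 (exact permutation p = 0.109, adjusted p = 0.474) and rho = 0.750 (exact permutation p = 0.0255, adjusted p = 0.204), with r at 0.328 without the 2 farthest eyes. Neither passed the correction, and the differences between genes were not tested. In control eyes r was 0.014 (exact permutation p = 0.966, adjusted p = 0.987) and rho was 0.217 (exact permutation p = 0.581, adjusted p = 0.744), with r at 0.405 without the 2 farthest eyes. Hmmr in control eyes had r = 0.719 with Nfe2l2 (exact permutation p = 0.0215, adjusted p = 0.212) and rho = 0.750 (exact permutation p = 0.0255, adjusted p = 0.204), with r at 0.506 without the 2 farthest eyes. The difference between the groups was not tested. Against the macrophage and microglia markers in Best1-Nrf2 eyes, r of Layn was −0.006 (exact permutation p = 0.987, adjusted p = 0.987), and r was 0.296 without the 2 farthest eyes. Layn is also known in T cells. Their 7 markers summed to 2.18 to 55.9 CPM without and 1.86 to 46.0 CPM with Nrf2 delivery, the highest sums mostly Foxp3. Trac stood at 0.849 to 3.20 CPM and 0.884 to 5.43 CPM, Cd3d at 0.344 to 1.59 CPM and 0.143 to 2.52 CPM, and Cd3e at 0 to 0.317 CPM and 0 to 0.453 CPM. None of the 2 T cell markers tested differed in edgeR.

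**Figure D3:**
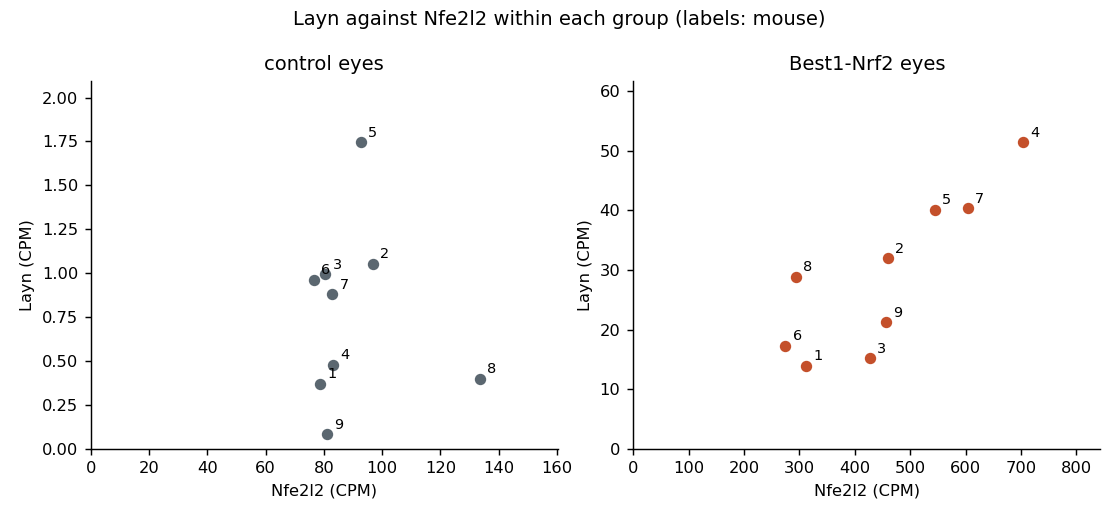
Layn against Nfe2l2, both in CPM, in the 9 control eyes (left) and the 9 Best1-Nrf2 eyes (right), with mouse numbers. In Best1-Nrf2 eyes both genes are highest in mouse 4, at 51.4 CPM of Layn and 703 CPM of Nfe2l2, while control eyes hold at most 1.75 CPM of Layn.

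To see which genes behaved most like Layn from eye to eye, 11805 genes were ranked by Pearson's r of log2 CPM after the group means had been subtracted, over all 18 libraries. Steap1 was most like it (r = 0.878), followed by Cpne2 (0.815), Eva1b (0.784), Cldn10 (0.753) and Hspb8 (0.738). Steap1 encodes a membrane protein of the metalloreductase family, Cldn10 a claudin of tight junctions, and Hspb8 a small heat shock protein. Among the members, Hmmr (0.237), Hyal1 (0.176), Hyal2 (0.139) and Cd44 (−0.068) ranked far below these, and Nfe2l2 was at 0.355. Within 1 group the values differed: in Best1-Nrf2 eyes r with Layn was 0.603 for Hyal1 and 0.666 for Hyal2, and in control eyes it was 0.620 for Hmmr. These values are descriptions, both genes of a pair were read from the same libraries, and control eyes held few Layn counts.

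*Variation of the other members among eyes*. Over 56 relations between pairs of members, examined after the values were seen, only that of Cd44 with Hmmr in the Best1-Nrf2 eyes passed the correction, and only by Pearson's r. Mice 9, 8, 5 and 1 had the 4 highest values of Cd44 (51.7, 51.2, 44.5 and 42.8 CPM) and the 4 highest of Hmmr (7.30, 8.11, 7.43 and 4.46 CPM). The other 5 eyes had 11.5 to 26.3 CPM of Cd44 and 1.08 to 2.91 CPM of Hmmr. Between Cd44 and Hmmr, r was 0.962 (2-sided exact permutation p = 0.000251, adjusted p = 0.0140) and rho was 0.883 (exact permutation p = 0.00308, adjusted p = 0.172), with r at 0.946 without the 2 eyes farthest from the median. In control eyes, r was 0.600 (exact permutation p = 0.0904, adjusted p = 0.301), rho was 0.450 (exact permutation p = 0.230, adjusted p = 0.583), and r without the 2 farthest eyes was 0.432. The difference between the groups was not tested. Cd44 and Has2 had r = 0.781 in Best1-Nrf2 eyes (exact permutation p = 0.00521, adjusted p = 0.146) and rho = 0.833 (exact permutation p = 0.00827, adjusted p = 0.232), with r at 0.859 without the 2 farthest eyes. For Hmmr and Has2, r was 0.695 (exact permutation p = 0.0306, adjusted p = 0.268) and rho 0.700 (exact permutation p = 0.0433, adjusted p = 0.346), with r at 0.695 without the 2 farthest eyes.

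Cd44, Hmmr and Has2 were also set against the marker lists. In the Best1-Nrf2 eyes, r of the mean level of the proliferating cell markers was 0.877 with Cd44 (exact permutation p = 0.00170), 0.872 with Hmmr (exact permutation p = 0.00243) and 0.879 with Has2 (exact permutation p = 0.00139), each with an adjusted p of 0.0763 over 144 relations of members to marker lists added after the values were seen. The rho was 0.817, 0.933 and 0.750 (exact permutation, adjusted p = 0.259, 0.0540 and 0.334), and r without the 2 farthest eyes was 0.889, 0.898 and 0.617. The RPE markers had values of the opposite sign with the same genes, with r at −0.798 for Cd44, −0.719 for Hmmr and −0.498 for Has2 (exact permutation, adjusted p = 0.0951, 0.201 and 0.477) and rho at −0.933, −0.817 and −0.767 (exact permutation, adjusted p = 0.0540, 0.259 and 0.334). Without the 2 farthest eyes, r was −0.768, −0.837 and −0.536. The fibroblast and sclera markers also had negative values, with r at −0.657, −0.652 and −0.784 (exact permutation, adjusted p = 0.263, 0.263 and 0.159) and rho at −0.767, −0.633 and −0.633 (exact permutation, adjusted p = 0.334, 0.486 and 0.486), and with r at −0.582, −0.635 and −0.637 without the 2 farthest eyes. In control eyes, r with the proliferating cell markers was 0.804, 0.791 and 0.782 for the same genes (exact permutation, adjusted p = 0.155, 0.155 and 0.159), with rho at 0.583, 0.717 and 0.650 and r at 0.717, 0.580 and 0.614 without the 2 farthest eyes. With the RPE markers there, r was −0.835, −0.557 and −0.633 (exact permutation, adjusted p = 0.0763, 0.460 and 0.263), with rho at −0.650, −0.417 and −0.750 and r at −0.645, −0.233 and −0.780 without the 2 farthest eyes. With the fibroblast and sclera markers there, r was 0.066, 0.180 and −0.071 (exact permutation, adjusted p = 0.940, 0.839 and 0.934), with rho at 0.100, 0.283 and −0.017 and r at 0.442, 0.242 and 0.320 without the 2 farthest eyes. No relation to these lists passed the correction in either group. The summed level of the 9 proliferating cell markers ranged from 41.0 to 331 CPM without and from 17.1 to 99.9 CPM with Nrf2 delivery, and their part in the pattern was not tested.

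In control eyes, the relation of Cd44 to the macrophage and microglia markers was negative. It passed the correction by Spearman's rho but not by Pearson's r. Over the 32 relations, rho was −0.933 (2-sided exact permutation p = 0.000750, adjusted p = 0.0240) and r was −0.835 (exact permutation p = 0.00488, adjusted p = 0.156), with r at −0.889 without the 2 eyes farthest from the median. In Best1-Nrf2 eyes r was 0.349 (exact permutation p = 0.347, adjusted p = 0.618) and rho was 0.367 (exact permutation p = 0.336, adjusted p = 0.717), with r at 0.355 without the 2 farthest eyes. The difference between the groups was not tested.

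**Figure D4:**
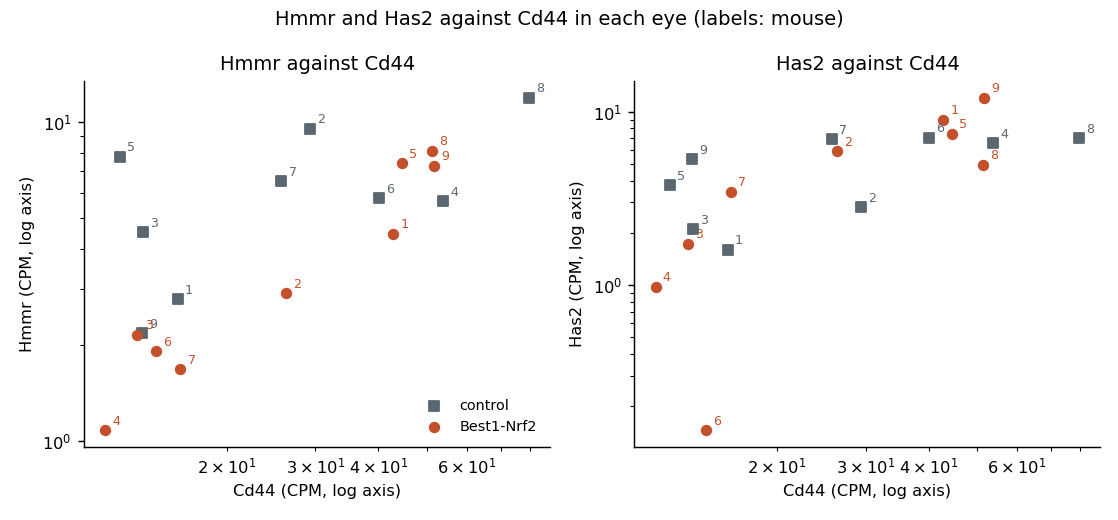
Hmmr (left) and Has2 (right) against Cd44 in each eye, in CPM on log axes, with mouse numbers; squares are control and circles are Best1-Nrf2 eyes. In Best1-Nrf2 eyes, mice 1, 5, 8 and 9 are the 4 highest for both Cd44 and Hmmr, and mouse 6 stands apart with 0.145 CPM of Has2.

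*The Layn start site*. Nrf2 binds DNA as a dimer with small Maf proteins at antioxidant response elements, so the 250 bases before the Layn start are shown (RefSeq, GRCm38.p6, minus strand, chr9:51077095-51077344), written 5′ to 3′ and ending at the base before the first transcribed one.
Layn: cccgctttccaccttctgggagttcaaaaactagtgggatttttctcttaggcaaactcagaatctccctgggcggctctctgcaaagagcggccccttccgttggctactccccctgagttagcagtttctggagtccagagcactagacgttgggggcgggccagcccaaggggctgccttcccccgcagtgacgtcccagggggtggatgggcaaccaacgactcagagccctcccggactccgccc
No letters are in capitals because neither motif that was searched, on both strands and in a window of 300 bases that ends 50 bases past the start, was found. These were the core element TGACNNNGC and the related AP-1 motif TGANTCA, which can overlap it. Over 32851 promoters of the same length, 12.4% held the first and 7.81% the second. Neither was found in any of the 7 members with a promoter in the table. This says only that these letters are not in these windows. Of the bases in the Layn window, 60.7% were G or C, beside a median of 52.7% over all promoters.

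The genes around Layn were examined after the values had been seen. Within 200 kb, 4 other genes passed the filter. Ppp2r1b, Sik2 and Colca2 had log2 fold changes of 0.57, 0.05 and −0.05, and none passed the threshold in edgeR (adjusted p = 0.464, 0.971 and 0.982). The fourth, 4833427G06Rik (chr9:51081115-51102078), lies on the same strand as Layn and ends 4021 bases before the Layn start. In 6 of 9 control eyes it had 0 counts, and the other 3 had 3 or 4 counts. In Best1-Nrf2 eyes it ranged from 119 to 284 counts, or from 2.07 to 8.23 CPM with a median of 5.47. The groups did not overlap, it was higher in 9 of 9 mice, and the fitted log2 fold change was 7.49, a size that depends on how near-zero counts are handled. Since this gene was picked for its values and passed the count filter through the Best1-Nrf2 eyes, its change is a description with no test. Within the Best1-Nrf2 eyes, its r with Layn was 0.456 (exact permutation p = 0.223) and rho 0.417 (exact permutation p = 0.270), with r at −0.109 without the 2 farthest eyes. Btg4, which overlaps Layn on the opposite strand and shares none of its exon bases, had 0 counts in all 9 control eyes and in 7 of the Best1-Nrf2 eyes, and at most 9 counts in the others.

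**Figure D5:**
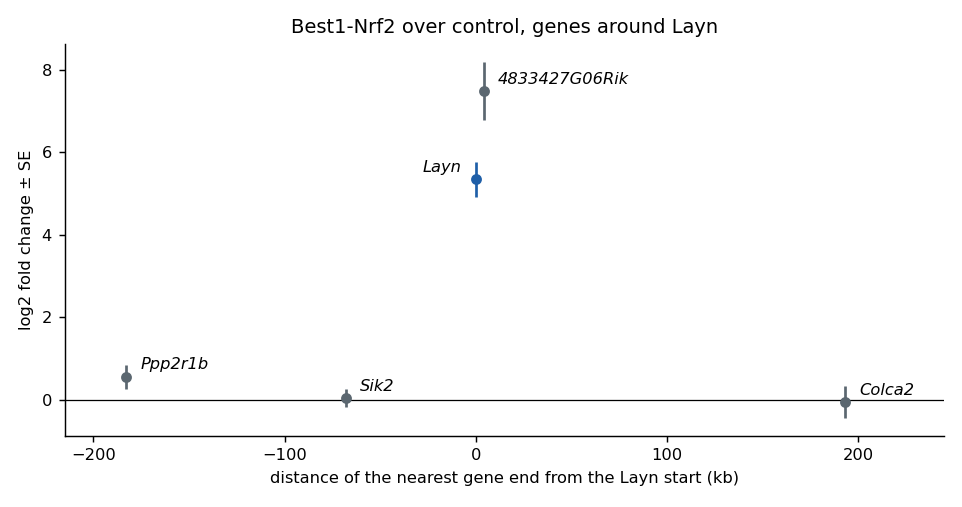
Log2 fold change of Best1-Nrf2 over control eyes, with its standard error, for Layn (blue) and the 4 other genes within 200 kb that passed the count filter, against the distance of their nearest end from the Layn start in kb. 4833427G06Rik, at 7.49, and Layn, at 5.35, stand above the other 3 genes, which lie between −0.05 and 0.57.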

How the data were processed

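RNA of the RPE was sequenced from both eyes of 9 mice (18 libraries). The authors aligned reads to mm10 with STAR and Ensembl release 91, counted them with featureCounts, and ran Salmon (0.8.1 per the submitters' processing notes) with tximport. The deposited table holds whole numbers, and which counter made it is not given in the sources used here. The deposited values were handled like expected counts, and the same test would be used for plain read counts. The study's methods name fewer *rd1* pairs at this age than the labels, and all labelled pairs were used. The RNA was amplified without molecular identifiers, and the sequencing run of each library, of 2 runs, is not given in the sources used here.

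Genes were filtered with filterByExpr, scaled by TMM and tested with edgeR 4.0.16 (quasi-likelihood test) in R 4.3.3, with the mouse as a block and Benjamini-Hochberg adjustment over 18958 genes. The labels give the same individual number to both eyes of a mouse. The correlation of their deviations from the group means ranged from −0.373 to 0.644. The median correlation with control eyes of other mice ranged from −0.237 to 0.161. For mice 2, 4, 5, 6 and 7, the value with the fellow eye was below that median. The pairing therefore rests on the labels and the methods, and these values do not clearly show it. CPM used TMM library sizes, with a prior count of 2 on the log2 scale. No pair of libraries of a group was a duplicate, with a chi-square of at least 50.6 per degree of freedom. The test was checked on simulated counts before use. Standard errors were derived from the F statistic, and intervals (95%) from it with the moderated degrees of freedom. Relations used exact permutation tests (SciPy 1.17.1). Symbols, coordinates and lengths came from GENCODE M21 (GRCm38), which matched 47224 of 47729 identifiers. Promoters came from RefSeq.

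The members, pathway lists and marker lists were chosen with earlier results of these data known. 1 listed pathway gene is not reported here. The genes named were the members, the pathway genes past the threshold, abundant pathway genes as examples, the 5 genes most like Layn (mean log2 CPM not under 2), and Nfe2l2. Chodl, Tln2, the genes beside Layn and Naa80 were named after their values were seen. The alternatives were other scalings, filters and tools, a rod and cone covariate, no mouse block, leaving out each mouse, and, chosen after seeing the data, leaving out mice 6 and 8.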

Additional observations from a re-analysis of the deposited data

Results flagged for a closer look

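For 32 pairs of a named gene and a group of 9 eyes, the highest and lowest values were screened for a sample far from the others by Dixon's criterion. Chance would flag about 1.6 of them, and 3 stood out, all in the control eye of mouse 8, which was the smallest library. Hyal1 was lowest there, at 4.35 on the log2 CPM scale against 5.17 in the next eye, from 357 counts. Gusb was also lowest there, at 3.20 against 4.35, from 160 counts. Nfe2l2 was highest there, at 7.06 against 6.60, from 2347 counts. Without mouse 8, the log2 fold change of Gusb was 0.68 and did not pass the threshold (edgeR adjusted p = 0.0513). The relation of Hyal1 to Nfe2l2 in control eyes rests on this eye: r was −0.887 (exact permutation p = 0.0266, adjusted p = 0.212) and rho −0.433 (exact permutation p = 0.250, adjusted p = 0.717), and r was −0.494 without the 2 eyes farthest from the median.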

How the results depend on the processing

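The log2 fold change of Layn stayed between 4.30 (rod and cone covariate) and 5.58 (without mouse 3) under every alternative that gave a value, and was 5.23 without the replicate block and 5.37 in DESeq2. With at least 10 counts in every library, Layn, Lyve1, Has2 and Cemip were left out. The 7 other members gave 0 calls under every alternative. The paired fit called 806 genes, the fit without the replicate block 742 (647 shared), DESeq2 1478 and the fit with the rod and cone covariate 30. Leaving out a mouse gave 540 to 1046, and leaving out mice 6 and 8 gave 1130. Of the pathway genes, 4 passed in the paired fit, 7 in DESeq2 and 0 with the covariate, and 2 to 5 when a mouse was left out. Each of these counts but the 0 includes Impg1, whose call is not read. The cause of these differences was not tested. The covariate also put Has2 at −4.83, Hmmr at −2.33, Cd44 at −2.08 and Lyve1 at 1.22. Members near 0 changed sign. Cd44 was at 0.018 without a count filter, 0.33 without mice 6 and 8 and from −0.26 to 0.27 with a mouse left out. Has2 was at 0.081 without the replicate block, 0.31 without mice 6 and 8 and from −0.53 to 0.20 with a mouse left out. Hyal2 was at −0.36 with the covariate and from −0.005 to 0.20 with a mouse left out. Cemip was at 0.30 without the replicate block, 0.001 without a count filter, 1.65 with the covariate and from −0.22 to 0.22 with a mouse left out. With upper-quartile scaling, r of Has2 with Nfe2l2 in Best1-Nrf2 eyes was −0.070 instead of 0.158, and with RLE scaling r of Layn with the macrophage markers there was 0.013. For Cd44 with the macrophage markers in control eyes, r was −0.835 in the main setting, −0.795 with RLE and −0.684 with upper-quartile scaling. Without the replicate block, Gusb (adjusted p = 0.0509) and Impg2 did not pass and Ugp2 did (adjusted p = 0.0246), and no other pathway gene or member changed its call. Depth limits Has1, Has3, Cemip and the control values of Layn.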
